A study of Mus musculus with 12 samples.

Results

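The microenvironment of B16 melanoma tumors was compared between tumors grown from F4 cells and tumors grown from F0 cells, using the 6 tdTomato-negative samples of a set of 12 arrays: 4 pools from F4 tumors (A, B, C and D) and 2 pools from F0 tumors (B2 and B3). B16 is a pigmented mouse melanoma line of C57BL/6 origin, and F4 cells are, per the labels, a B16 derivative that had acquired resistance to earlier checkpoint inhibitor therapy. In both groups 25000 cultured cells were placed under the skin of the right flank of C57BL6 mice and tumors were taken at 100 to 400 mm3. The tumors of 3 mice were digested and pooled for each replicate, and the cells without tdTomato fluorescence were sorted away from the tdTomato-positive tumor cells, so that 1 array stands for 1 pool of mice.

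The labels conflict on treatment. The treatment tag gives the F0 samples as free of past and present checkpoint inhibitors and the F4 samples as under such treatment, whereas the protocol gives 3 injections of checkpoint inhibitors with Fvax, B16 cells that express Flt3 ligand, to mice with either line. A difference between the groups can therefore hold the cell line, the treatment or both, and these cannot be told apart. All 6 arrays lay on 1 chip with the F0 pools in the first positions, and the place on the chip cannot be told apart from the line. The labels do not state whether F4 is a single clone, and neither the age nor the sex of the mice is given in the sources used here.

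The non-malignant part of a tumor holds lymphocytes, myeloid cells, fibroblasts and vessels. CD8 T cells recognise tumor peptides on MHC class I molecules, kill through perforin and granzymes, and release interferon gamma, which raises antigen presentation, the chemokines Cxcl9 and Cxcl10 and the checkpoint ligand Cd274 (PD-L1). Checkpoint inhibitors are antibodies that block brakes on T cells such as Ctla4 and PD-1. Macrophages, neutrophils and fibroblasts vary widely between tumors, and the balance of these cells sets much of what a bulk array of this fraction reads.

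Between 6808 and 9387 probes were detected per microenvironment array, where detected means a detection p below 0.01, and mean raw signal ran from 155.8 to 259.4 units. Levels below are log2 signals after background correction and quantile normalization of the 6 arrays, so that 1 unit is a 2-fold difference in signal. A total of 6627 genes passed the detection filter and were tested with limma. Levels of different genes are not comparable, since each rests on its own probe.

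The leukocyte content of the fraction was checked with 10 genes shared by most leukocytes, of which 9 were measured; Ptprc was not among the named probes. Each pool had 8 or 9 of these detected. On a common scale with the 6 tdTomato-positive arrays their mean level was 9.34 to 10.45 in the microenvironment pools, against 6.32 to 7.65 in 5 tumor-fraction arrays and 9.56 in the tumor fraction of F4 A, which stood apart. Melanocyte genes were not absent from the sorted cells. Their mean on the same scale, over 12 genes, was 9.38 in F0 B3 and 9.43 in F4 D, and 7.25 to 8.36 in the other 4 pools. It was 8.81 in the tumor fraction of F4 A and 9.48 to 9.81 in the other 5 tumor-fraction arrays, just above F0 B3 and F4 D. On the scale of the 6 arrays, all 11 tested melanocyte genes were detected in F0 B3 and F4 D, 10 in F4 B, 8 in F0 B2 and F4 A, and 6 in F4 C. Mlana, a melanosome protein, read 10.46 in F0 B2 and 12.44 in F0 B3, and 10.59, 11.06, 9.61 and 12.69 in F4 A to D. F0 B3 and F4 D were thus the highest pools for Mlana by over 1 log2 unit, and the closing section gives the fits with the melanocyte mean as a covariate and without these 2 pools.

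No gene passed the test between F4 and F0. At an adjusted p below 0.05 limma called 0 of 6627 genes higher in F4 (0%) and 0 lower (0%), and the lowest adjusted p was 0.99997. Unadjusted p fell below 0.05 for 30 genes (0.453%), of which 13 were higher (0.196%) and 17 lower (0.257%) in F4. This was a smaller share than the 0.05 that chance alone would give on average. All 4 F4 pools lay above both F0 pools for 118 genes (1.78%) and below both for 164 (2.47%). For 636 genes (9.6%) all 4 F4 pools lay between the F0 pools. The F4 mean lay between the F0 pools for 3962 genes (59.8%). With 2 F0 pools the median 95% interval reached 0.80 log2 units to either side of the estimate. On simulated data of the same size and per-gene spread, with each gene drawn independently, this fit recovered 2% of 2-fold and 60% of 4-fold differences. Differences of 2-fold were thus mostly not detectable with these arrays. The real pools shared shifts across many genes, which the simulation left out, so the 60% need not hold for them. Rhox5, with a fitted fold of 8.54, had a limma adjusted p of 0.99997.

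The most similar pools were in part from different lines. Across genes, which are not independent replicates, the F0 pools correlated with each other at 0.886. F0 B3 correlated best with F4 D, at 0.970, and F0 B2 best with F4 A, at 0.953, closely followed by F4 B, at 0.951. F4 B and F4 C correlated at 0.962, whereas F4 C and F4 D correlated at 0.852. All arrays share the same probes and background, which raises every one of these values. Of 31 gene lists with at least 2 tested genes, 0 had all 4 F4 list means above both F0 means, 0 had all 4 below, and 5 had all 4 between them. Those 5 were the lists for CD4 and regulatory T cells, skeletal muscle, class I presentation, interferon gamma response and hypoxia response. In bulk samples fewer cells of a type and less RNA per cell cannot be told apart.

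**Figure D1:**
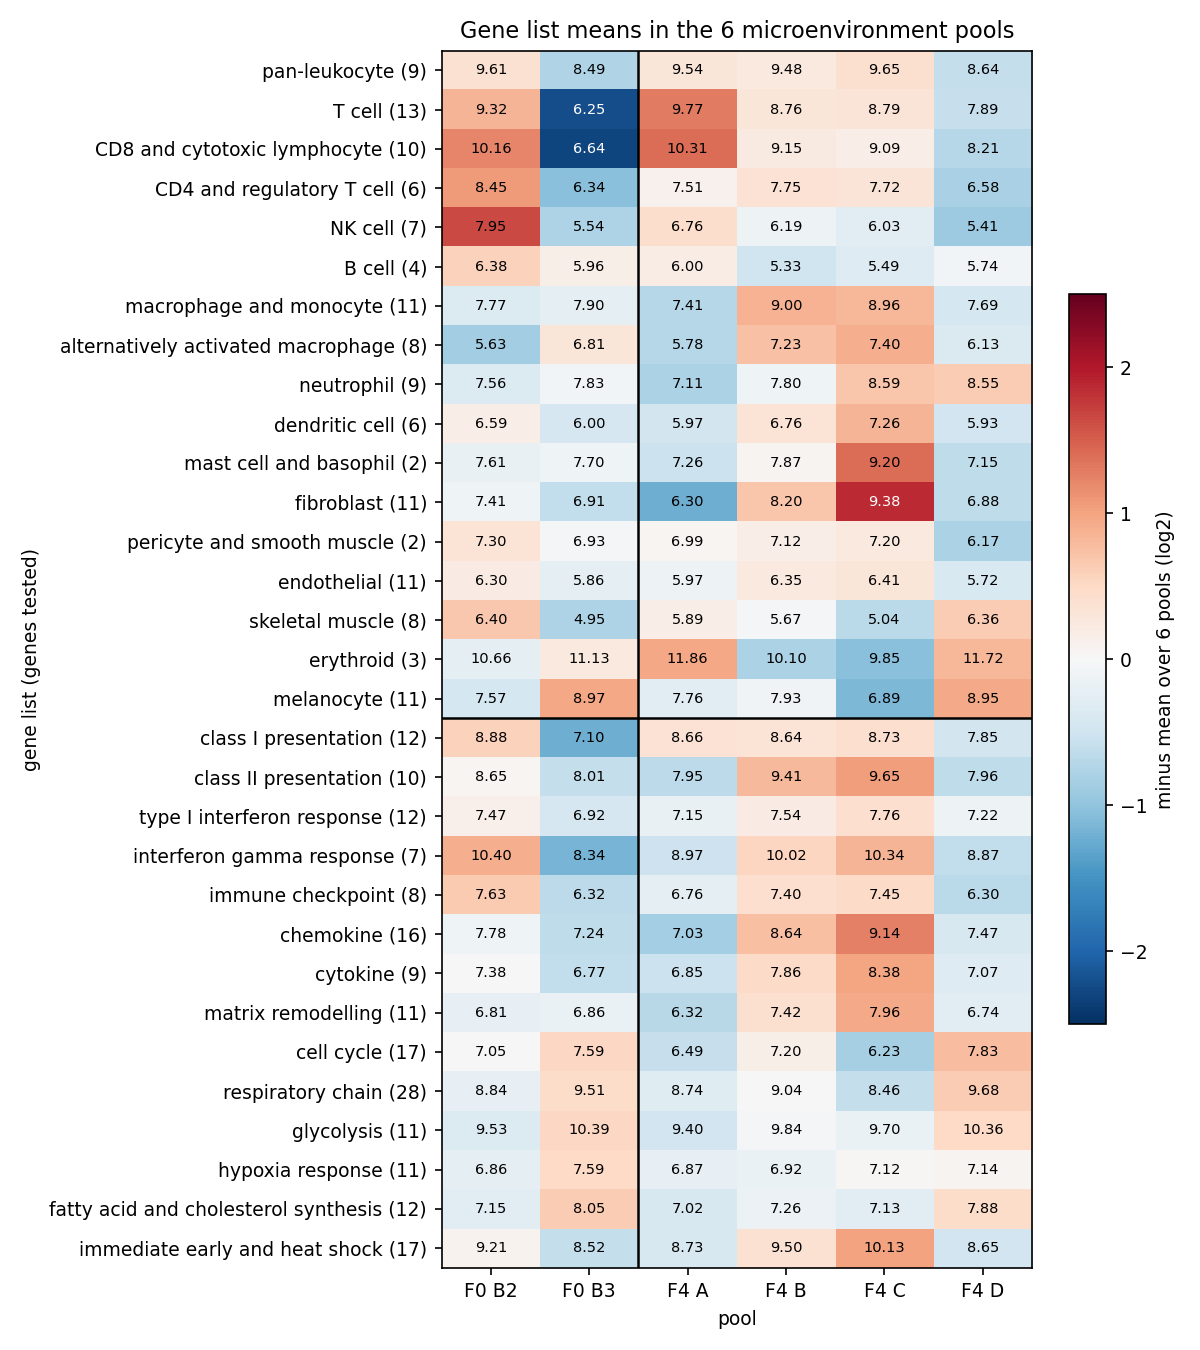
Mean log2 signal of the tested members of each gene list (rows, with the number of genes) in each pool (columns); numbers are the means and colour is the mean minus its average over the 6 pools. T cell genes run from 6.25 in F0 B3 to 9.77 in F4 A, fibroblast genes from 6.30 in F4 A to 9.38 in F4 C, and no row separates the 2 F0 columns from the 4 F4 columns in one direction.

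T cell genes were among those that split the F0 pools most. The mean of 13 T cell genes was 9.32 in F0 B2 and 6.25 in F0 B3, and 9.77, 8.76, 8.79 and 7.89 in F4 A to D. Every F4 pool lay above F0 B3, and 1 of 4, A, lay above F0 B2. Cd3e, a chain of the CD3 complex that signals for the T cell receptor, read 10.44 and 6.69 in F0 B2 and B3, and 10.92, 9.87, 9.67 and 8.89 in F4 A to D. The F4 mean was 1.27 ± 0.95 (SE) above the F0 mean, 0.60 below F0 B2 and 3.14 above F0 B3, so the groups overlapped and the direction rested on which F0 pool was taken. Cd6, a costimulatory receptor, read 10.32 and 6.89 against 10.83, 9.83, 9.94 and 9.17, and Cd28, the costimulatory receptor for B7 molecules, 7.30 and 5.01 against 8.39, 6.93, 7.39 and 6.55. All 13 T cell genes had a higher mean in F4 than in F0, against 45.8% of all genes. Their median difference was 1.05 against -0.03 over all genes, and it was -0.60 against F0 B2 alone and 2.53 against F0 B3 alone. None of the 13 passed.

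Genes of CD8 and cytotoxic lymphocytes were also highest in F4 A and F0 B2 and lowest in F0 B3. The mean of 10 genes was 10.16 and 6.64 in F0 B2 and B3, and 10.31, 9.15, 9.09 and 8.21 in F4 A to D. Cd8b1, the beta chain of CD8, read 11.96 and 8.16 in the F0 pools against 12.56, 11.45, 11.39 and 10.62 in F4. Gzmk, granzyme K of effector memory T cells, was the member with the lowest unadjusted p. It read 6.71 and 4.60 in F0 B2 and B3 against 9.31, 8.0, 7.39 and 6.66 in F4 A to D, and was detected in 4 of 4 F4 pools and 1 of 2 F0 pools. Its difference was 2.18 ± 0.79 (SE; limma adjusted p 0.99997), with F4 D just under F0 B2. Prf1, perforin, read 12.04 and 11.18 against 12.13, 10.71, 12.06 and 9.93, with no separation of the groups. Of the 10 genes 7 had a higher F4 mean and 3 a lower one, with a median of 1.02, which was -0.98 against F0 B2 and 3.15 against F0 B3. Only 6 of the 10 were detected in F0 B3, so the 3.15 was taken in part against background.

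The list mean of CD4 and regulatory T cell genes lay between the F0 pools in all 4 F4 pools, as did 3 of its 6 genes. The mean over 6 genes was 8.45 and 6.34 in F0, and 7.51, 7.75, 7.72 and 6.58 in F4, with a median difference of 0.07. Foxp3, the transcription factor of regulatory T cells, read 6.91 and 5.99 against 6.24, 6.98, 7.07 and 5.61. Ctla4, the inhibitory receptor that regulatory and activated T cells carry and a target of checkpoint inhibitors, read 8.99 and 5.89 against 8.23, 8.15, 8.17 and 6.99. Icos, an inducible costimulator, read 8.11 and 6.06 against 7.76, 7.49, 8.04 and 6.59. Tnfrsf9 (4-1BB), which is induced on activated T cells, read 7.83 and 5.87 against 5.65, 6.65, 6.30 and 5.77, with 2 of 4 F4 pools under both F0 pools.

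The NK cell list mean was highest in F0 B2, although Klrg1 and Klrk1, which T cells also carry, were slightly higher in F4 A (6.49 against 6.25, and 6.31 against 6.23). The mean of 7 NK cell genes was 7.95 in F0 B2 and 5.54 in F0 B3, and 6.76, 6.19, 6.03 and 5.41 in F4 A to D. Klra4, an MHC-binding receptor of the Ly49 family, read 9.34 in F0 B2, 5.87 in F0 B3, and 6.46, 5.98, 6.46 and 4.71 in F4. Klra7 of the same family read 8.98 and 5.59 against 5.80, 5.34, 4.71 and 4.92, a difference of -2.09 ± 0.81 (SE; limma adjusted p 0.99997), which was -3.79 against F0 B2 and -0.39 against F0 B3. Ly49 genes are near-identical copies, so a probe for 1 of them may read others. Klrd1 (CD94), which CD8 T cells also carry, read 10.12 and 7.17 against 9.26, 8.53, 8.61 and 7.49. Of the 7 genes 6 had a lower F4 mean, against 54.2% of all genes, with a median of -0.17. The list median was -1.64 against F0 B2 and 0.37 against F0 B3. Only 5 of the 7 genes were detected in F0 B3 and 4 in F4 D.

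B cells were represented by 4 of 13 listed genes, the only ones with a named probe, and their mean was 6.38 and 5.96 in F0 and 6.0, 5.33, 5.49 and 5.74 in F4. Fcmr, the IgM receptor, read 7.95 and 6.93 in F0 against 6.99, 5.06, 5.30 and 6.44 in F4, with 3 of 4 F4 pools below both F0 pools and F4 A between them. Its difference was -1.49 ± 0.58 (SE; limma adjusted p 0.99997). Cd79b, a signalling chain of the B cell receptor, read 6.52 and 6.09 against 6.28, 5.18, 5.29 and 5.77, and the single plasma cell gene measured, Mzb1, read 6.21 and 5.45 against 5.55, 5.48, 5.20 and 5.54.

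**Figure D2:**
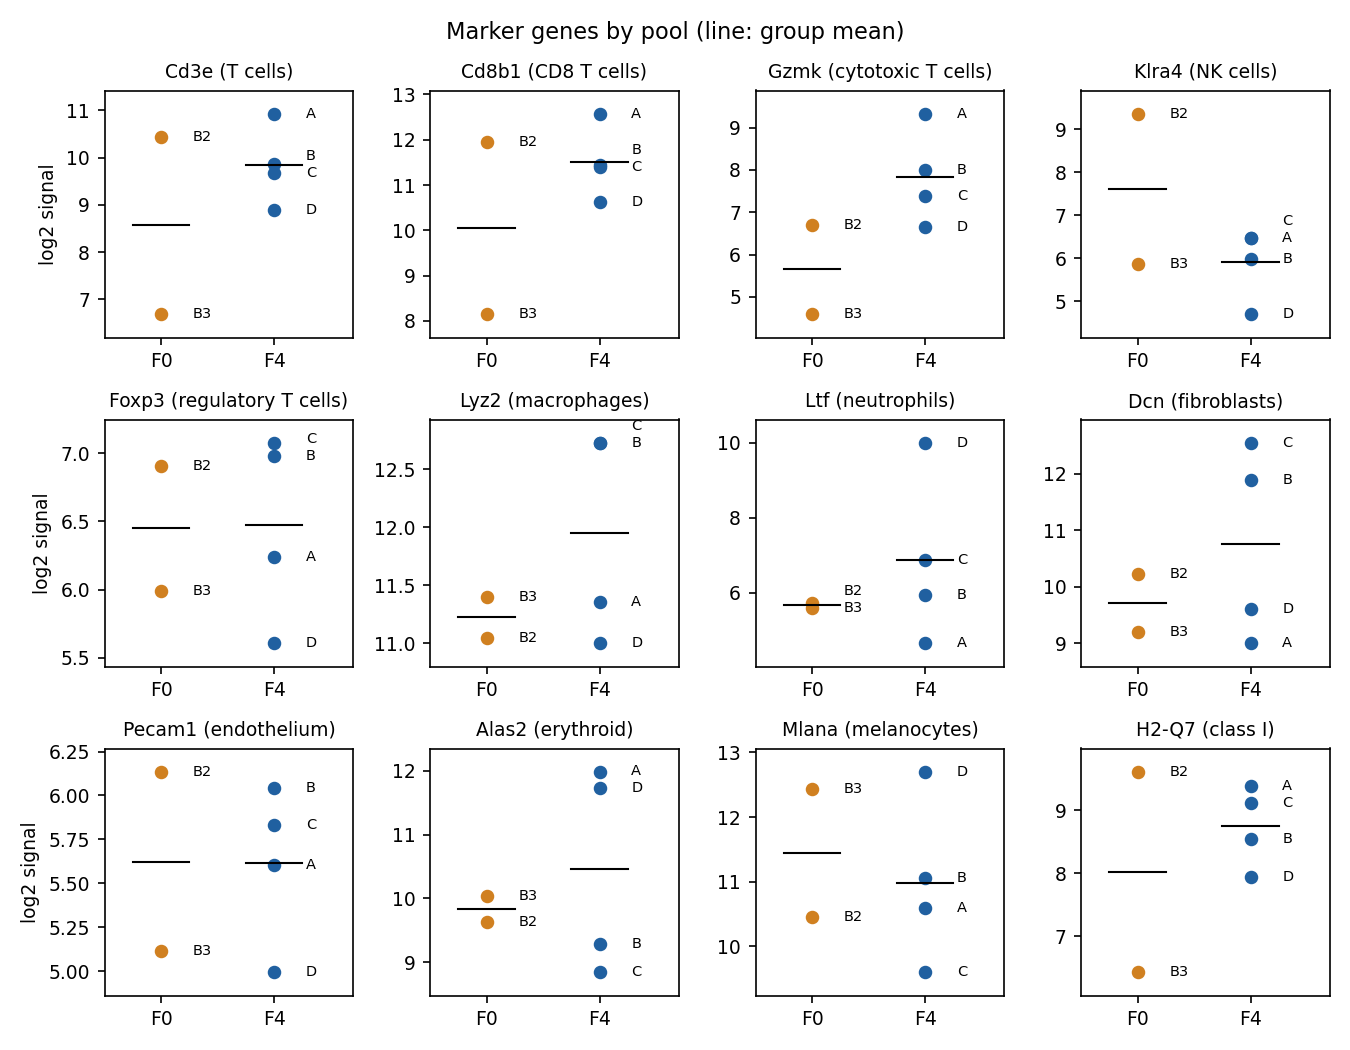
Log2 signal (vertical axes, each with its own range) of 12 marker genes in the F0 pools B2 and B3 (orange) and the F4 pools A to D (blue), 1 point per pool, with group means as lines. The F0 points for Cd3e lie at 10.44 and 6.69 with all F4 points but A between them, Klra4 is high in F0 B2 alone, and Dcn is high in F4 B and C.

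Macrophage genes separated F4 B and C from the other 4 pools. The mean of 11 macrophage and monocyte genes was 7.77 and 7.90 in F0, and 7.41, 9.0, 8.96 and 7.69 in F4 A to D. Lyz2, the lysozyme of myeloid cells, read 11.05 and 11.40 in F0 against 11.36, 12.72 and 12.72 in F4 A to C, with F4 D close to F0 B2. Cd14, a receptor for bacterial lipopolysaccharide, read 9.51 and 9.47 against 9.73, 11.02, 11.45 and 9.50, and Adgre1, a surface marker of mouse macrophages, 5.19 and 5.77 against 4.81, 6.50, 6.84 and 5.69. A higher F4 mean was found for 10 of 11 genes, with a median of 0.41, and the 2 F0 pools differed here by less than the F4 pools did (SD 0.09 against 0.83). Genes of alternatively activated macrophages read 5.63 and 6.81 on average in F0 and 5.78, 7.23, 7.40 and 6.13 in F4. Among them were Arg1, arginase, at 8.12 and 9.32 against 8.09, 9.61, 10.12 and 9.08, and Mrc1, the mannose receptor, at 5.82 and 8.07 against 6.17, 8.24, 9.24 and 6.28. Stab1 and Folr2, a scavenger receptor and a folate receptor of tissue macrophages, had F4 minus F0 differences of 0.54 ± 0.38 (SE) and 0.67 ± 0.55 (SE).

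The neutrophil list mean was highest in F4 C and D, with different members leading. The list mean over 9 genes was 7.56 and 7.83 in F0 and 7.11, 7.80, 8.59 and 8.55 in F4. Ltf, the secondary-granule protein lactoferrin, had one of the widest spreads over the F4 pools of any gene. It read 5.73 and 5.60 in F0, and 4.68, 5.93, 6.87 and 9.98 in F4 A to D. Lcn2, another secondary-granule protein, read 6.66 and 6.66 against 6.10, 6.92, 8.11 and 8.81. S100a8, a calcium-binding protein abundant in neutrophils and monocytes, spanned less, from 10.73 in F0 B2 to 12.09 in F4 D. Csf3r, the G-CSF receptor, was by contrast highest in F4 C at 7.08 and read 5.31 in F4 D. Beside F0 B3, F4 D had 6 of the 9 genes higher (median 0.42), most of all Ltf (by 4.37) and Lcn2 (by 2.15). Mmp9 (6.47 against 6.94), Clec4d (8.07 against 8.88) and Csf3r (5.31 against 6.01) were lower in F4 D. Its high list mean thus rested largely on Ltf and Lcn2.

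Dendritic and mast cell genes were few. The mean of 6 dendritic cell genes was 6.59 and 6.0 in F0 and 5.97, 6.76, 7.26 and 5.93 in F4. Itgae (CD103), found on a cross-presenting dendritic subset and on tissue T cells, read 6.77 and 6.48 against 6.75, 7.85, 8.08 and 6.46. Zbtb46, a transcription factor of conventional dendritic cells, read 5.07 and 5.37 against 4.20, 4.95, 5.02 and 4.70, below both F0 pools in 4 of 4. It was detected in only 1 of 4 F4 and 1 of 2 F0 pools, so most of these values were not well above background. Hdc, histidine decarboxylase, read 10.15 and 9.95 against 10.03, 10.48, 11.54 and 9.45, and Fcer1a, a chain of the IgE receptor, was highest in F4 C at 6.86.

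Fibroblast genes had the widest range within F4 of the 31 lists with at least 2 tested genes. The mean of 11 genes was 7.41 and 6.91 in F0 B2 and B3, and 6.30, 8.20, 9.38 and 6.88 in F4 A to D. Dcn, the matrix proteoglycan decorin, read 10.22 and 9.20 in F0 against 9.01, 11.89, 12.54 and 9.61 in F4. Col1a1, type I collagen, read 6.62 and 6.02 against 4.58, 7.16, 9.0 and 6.23, so that F4 held both the lowest and the highest pool. Loxl1, a matrix cross-linking enzyme, read 7.98 and 7.05 against 6.94, 9.36, 10.67 and 6.88. The remaining 4 of the 5 genes with the largest SD over the F4 pools, beside Ltf, were likewise highest in F4 C and next highest in F4 B. Serping1, the C1 inhibitor, read 8.69 and 7.35 in F0 and 7.17, 10.53, 11.62 and 7.81 in F4, and Pi16, a marker of fibroblasts in several tissues, 8.59 and 7.01 against 7.38, 10.18, 11.23 and 6.87. Ogn, a matrix proteoglycan, ranged from 4.37 in F4 A to 8.79 in F4 C, and Scara3 from 6.06 to 10.45 in the same pools. The differences between the group means were 0.92 to 1.26 for these 4 genes, each smaller than its SE of 1.13 to 1.24 except for Serping1, at 1.26 ± 1.19.

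The endothelial list mean varied little, although single members varied more, such as Flt1 at 6.91 in F0 B2 and 5.59 in F0 B3. Endothelial genes averaged 6.30 and 5.86 in F0 and 5.97, 6.35, 6.41 and 5.72 in F4, with 7 of 11 higher and 4 lower in the mean of F4. Pecam1 (CD31) read 6.13 and 5.11 against 5.60, 6.04, 5.83 and 5.0. Vwf, von Willebrand factor, read 4.89 and 4.44 against 5.48, 4.95, 5.50 and 4.75. Of the pericyte list 2 genes were measured, Acta2, smooth muscle actin, and Cspg4 (NG2), with differences of -0.28 ± 0.55 (SE) and -0.21 ± 0.26 (SE); for Acta2 another probe gave 0.15.

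Tissues around the tumor and blood contributed unevenly. Skeletal muscle genes averaged 6.40 in F0 B2 and 4.95 in F0 B3, and 5.89, 5.67, 5.04 and 6.36 in F4, and from 2 to 8 of the 8 were detected in a pool. Tnni2, a fast-muscle troponin, ranged from 5.10 in F0 B3 to 5.97 in F4 D. Erythroid genes averaged 10.66 and 11.13 in F0 and 11.86, 10.10, 9.85 and 11.72 in F4. Alas2, the haem synthesis enzyme of red cell precursors, read 9.64 and 10.05 against 11.97, 9.29, 8.85 and 11.73, and Slc4a1, the red cell anion exchanger, 7.60 and 8.58 against 8.96, 6.26, 5.93 and 8.79. F4 A and D were thus high in Alas2 and Slc4a1 and low in fibroblast genes, and F4 B and C the reverse. The third erythroid gene, Hba-a1, was not higher in F4 A and D, at 14.64 in each against 14.75 in both F0 pools. Of 11 keratinocyte genes 2 had a named probe and 0 passed the filter, and Lpl, a lipase, was the only adipocyte gene measured, from 6.80 in F4 A to 10.27 in F4 C.

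The split of the F0 pools was itself wide. Signals differed at least 4-fold for 151 genes higher in B2 (2.28%) and 26 higher in B3 (0.392%), which is a description of 2 pools and carries no test. Ifng, interferon gamma, read 10.39 in B2 and 5.08 in B3, where it was not well above background, and 9.69, 9.06, 8.69 and 7.02 in F4 A to D. Xcl1, a chemokine that cytotoxic lymphocytes release, read 11.24 and 6.06 and lay between 7.35 and 8.61 in F4. Nkg7, a cytotoxic granule protein, read 12.25 and 7.52, with 10.07 to 12.28 in F4. Ctsw, cathepsin W, read 10.56 and 6.35, and Cd69, an early activation marker, 10.90 and 7.02. Sh2d2a, an adaptor of T cells, read 12.19 and 7.44, Rgs16 10.10 and 5.77, Tnfaip3 (A20), an inhibitor of NF-kappaB signalling, 9.58 and 5.49, and Klre1, an NK cell receptor, 9.07 and 5.17. For 8 of the 10 most B2-high genes, Cd8b1 included, the F4 mean was above the F0 mean; Xcl1 and Klre1 were the others.

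The opposite side of the F0 split included genes that the tumor fraction expressed. Rab38, a melanosome trafficking GTPase, read 6.0 in F0 B2 and 8.94 in F0 B3, and 5.93, 6.83, 5.31 and 8.66 in F4 A to D. Eps8, an actin regulator, read 6.30 and 8.99 against 6.11, 7.79, 6.42 and 9.12. The glutathione transferases Gstp2, Gsta1 and Gsta4 read 7.91, 6.38 and 5.54 in B2 and 10.96, 8.97 and 8.09 in B3. Gsta2 read 7.32 in B3 and was not well above background in B2. Gsta1 and Gsta2 are near-identical copies, so their probes may share signal. Car14, a carbonic anhydrase, read 7.43 and 9.80, and Nckap1 and Atp6v0e2 read 7.27 and 7.24 in B3 and were not well above background in B2. Each of these 9 genes was also high in F4 D, between 6.70 and 11.51. Mrc1 was the exception, high in F0 B3 at 8.07 but 6.28 in F4 D. On the common scale of 12 arrays Rab38 read 8.69 to 10.26 and Eps8 8.63 to 11.02 in the tumor fraction.

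**Figure D3:**
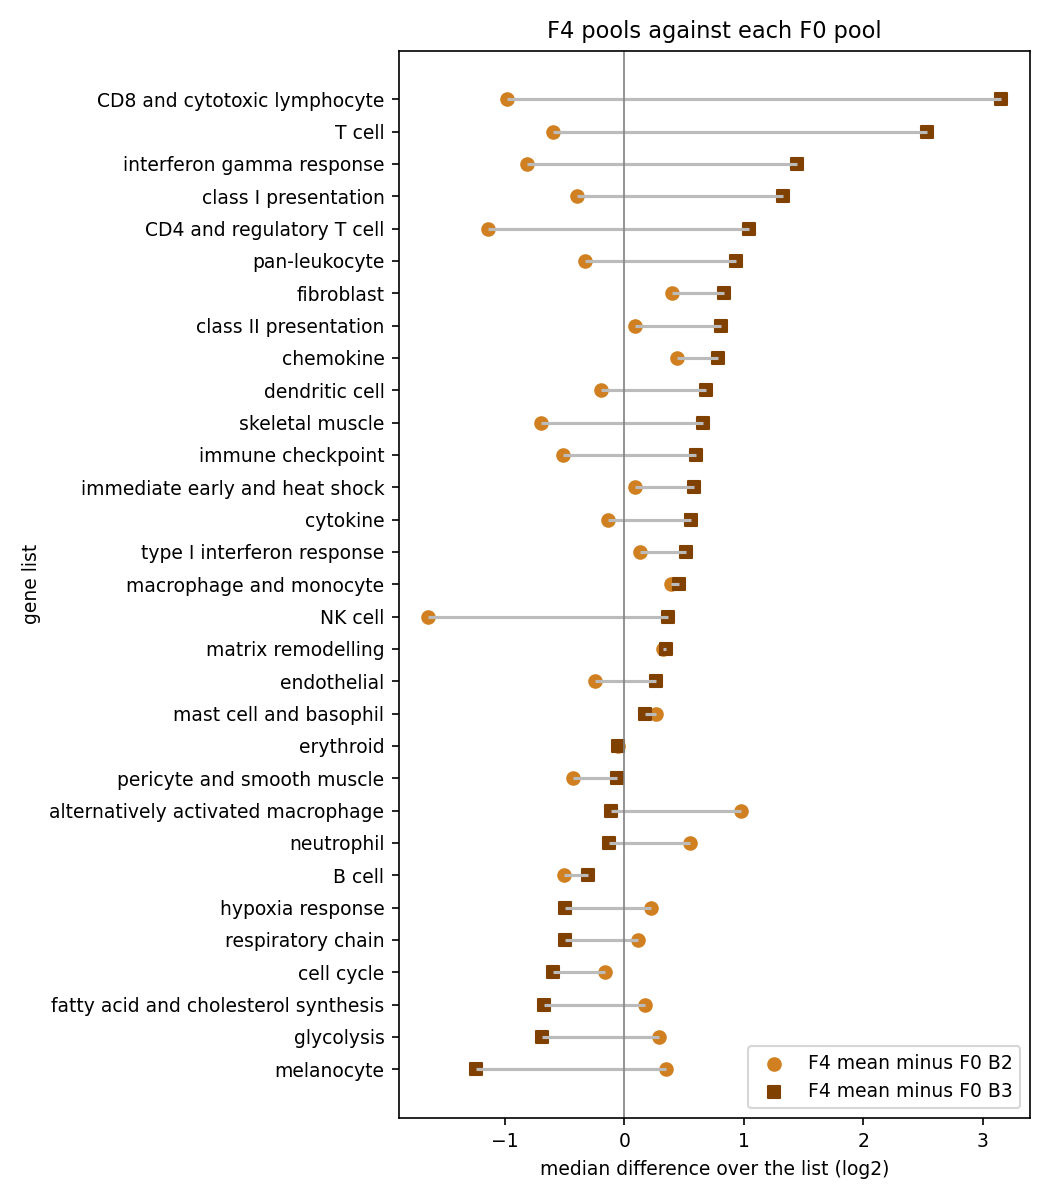
Median over each gene list (rows) of the F4 mean minus F0 B2 (circles) and of the F4 mean minus F0 B3 (squares), in log2 units, with a grey line joining the pair. The pair lies on opposite sides of 0 for 19 of 31 lists, most widely for CD8 and cytotoxic lymphocytes (-0.98 and 3.15), where 6 of 10 genes were detected in F0 B3.

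Against each F0 pool alone, 19 of 31 list medians had opposite signs and 12 had the same sign. The 12 that kept their sign included fibroblasts (0.40 and 0.83), chemokines (0.44 and 0.78), macrophages and monocytes (0.39 and 0.46), class II presentation (0.09 and 0.81), type I interferon response (0.13 and 0.51), B cells (-0.51 and -0.31) and cell cycle (-0.16 and -0.60). None of these lists had 4 F4 pools on one side of both F0 pools.

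Among all list members, 5 separated the groups without overlap: Il18 and Ifit2, higher in F4, and Zbtb46, Egfl7 and Vegfa, lower. These are 5 of 314 tested list entries, against 1.78% of all genes above and 2.47% below. Of them Zbtb46 was detected in only 1 of 4 F4 and 1 of 2 F0 pools. Rhox5, a reproductive homeobox gene of the X-linked Rhox cluster, had the lowest unadjusted p. It read 6.63 and 8.54 in F0 B2 and B3, and 4.76, 4.50, 4.37 and 4.33 in F4 A to D, detected in 2 of 2 F0 pools and 0 of 4 F4 pools. The signal was at least 5.33-fold lower in F4, with a fitted difference of -3.09 ± 0.49 (SE; limma adjusted p 0.99997). Every F4 pool was below both F0 pools by more than the spread within F4, yet the gap between the F0 pools was 1.92. In the tumor fraction, on the scale of 12 arrays, Rhox5 read 10.56 and 10.41 in F0 and 6.92, 4.71, 4.85 and 4.57 in F4. F4 D matched F0 B3 in melanocyte genes and did not have Rhox5 well above background, but Rhox5 was also low in the tumor fraction of F4 D, at 4.57. The part of carried-over tumor cells in the Rhox5 signal of the F0 pools was not tested.

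Lgi4, a secreted protein known from Schwann cells, read 5.79 and 5.35 in F0 against 4.62, 4.69, 4.75 and 4.60 in F4. It was detected in 2 of 2 F0 and 0 of 4 F4 pools and was at least 1.32-fold lower in F4 (-0.91 ± 0.27 SE; limma adjusted p 0.99997). In the tumor fraction it read 7.67 and 7.19 in F0 against 4.89, 5.30, 5.47 and 5.53 in F4. Igsf3, an immunoglobulin superfamily protein, read 7.52 and 7.60 against 7.50, 5.43, 5.95 and 5.31, where F4 A lay just below the F0 pools. Slc12a2, a sodium, potassium and chloride cotransporter, read 7.46 and 7.68 against 7.35, 6.44, 6.45 and 6.49. Calr3, a testis calreticulin, read 5.69 and 5.76 against 4.40, 4.46, 4.75 and 5.31, and Lsmem1 6.40 and 6.56 against 5.63, 5.61, 5.73 and 5.80. The other 4 named genes that were lower in F4 were Asb2 (-0.79 ± 0.30 SE), Sfi1 (-0.68 ± 0.27 SE), Sh3tc2 (-0.91 ± 0.37 SE) and the endothelial list member Egfl7 (-0.81 ± 0.33 SE). Another probe gave a smaller difference for Sfi1 (-0.05), Egfl7 (-0.40) and Slc12a2 (-0.31).

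Arhgap29, a GTPase-activating protein, led the genes that were higher in F4. It read 4.86 and 4.49 in F0 and 5.80, 6.03, 6.31 and 5.71 in F4, detected in 4 of 4 F4 and 0 of 2 F0 pools. The signal was at least 1.58-fold higher in F4 (1.29 ± 0.30 SE; limma adjusted p 0.99997). In the tumor fraction Arhgap29 read 6.26 and 5.80 in F0 against 6.37, 7.12, 6.72 and 6.86 in F4. Fam117a read 6.45 and 5.41 against 7.83, 6.55, 7.04 and 6.80. Tnfrsf25 (DR3), a death-domain receptor of T cells, read 5.23 and 4.56 against 6.30, 5.29, 5.91 and 5.41, at least 1.35-fold higher. Oas1g, an interferon-induced oligoadenylate synthetase, read 7.71 and 7.40 against 7.97, 8.47, 8.25 and 7.97. Ddx5, an RNA helicase, read 6.27 and 6.40 against 7.20, 7.0, 6.80 and 7.19. The other 5, Cdc42ep3, Xylt2, Cyp2d22, Tmco6 and Heca, had fitted differences of 0.63 to 0.80. Xylt2, Tmco6 and Heca were detected in 0 of 2 F0 pools and were at least 1.35-fold, 1.18-fold and 1.21-fold higher in F4.

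**Figure D4:**
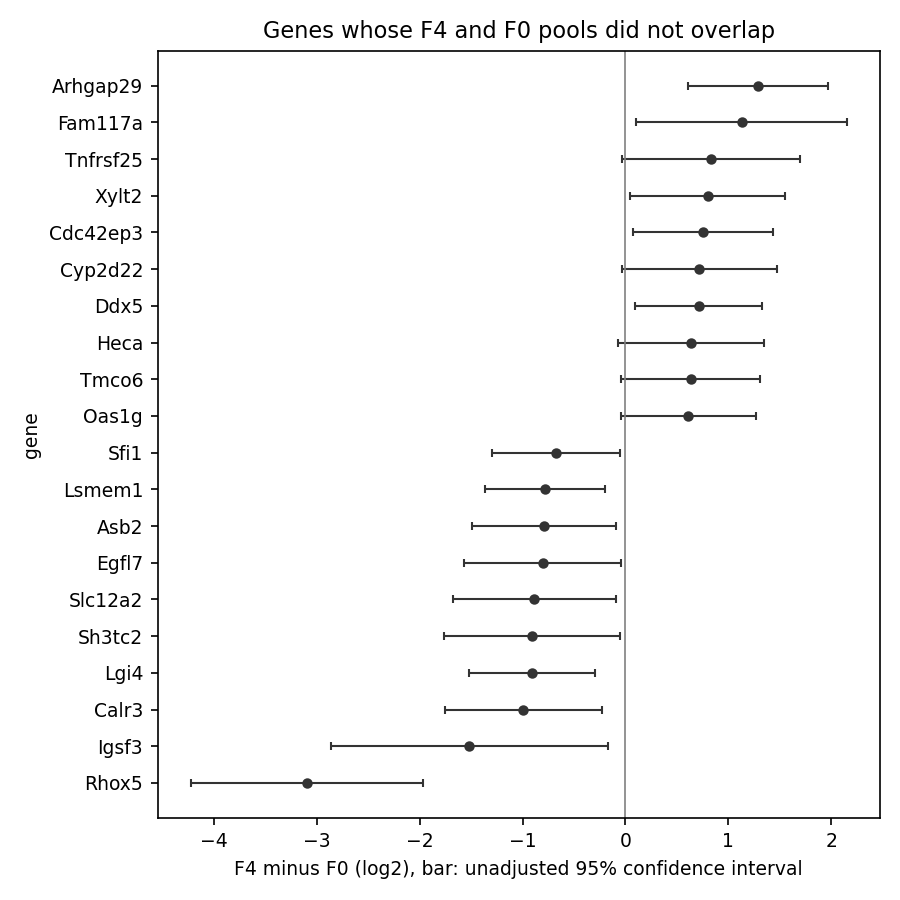
F4 minus F0 (log2, horizontal axis) with unadjusted 95% confidence intervals for the 20 named genes (rows) whose F4 and F0 pools did not overlap. Rhox5 lies at -3.09, the other lower genes between -1.52 and -0.68 and the higher genes between 0.61 and 1.29; no gene passed after adjustment, and for genes detected in no pool of a group the fitted value is not a bound.

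Adh7 and Pgam2, an alcohol dehydrogenase and the muscle phosphoglycerate mutase, were followed because of earlier results on these lines. Pgam2 read 4.99 and 4.43 in the F0 microenvironment and 6.13, 5.76, 4.92 and 7.72 in F4, detected in 0 of 2 and 3 of 4 pools, and at least 1.78-fold higher in F4. Its highest pool, F4 D, was also the highest in melanocyte genes, and the skeletal muscle list averaged 6.36 there; the part of either in this value was not tested. In the tumor fraction Pgam2 read 4.88 and 5.41 in F0 against 8.78, 8.42, 8.09 and 8.47 in F4. Adh7 read 4.68 and 4.44 in the F0 microenvironment against 4.82, 6.39, 6.20 and 5.52 in F4, detected in 0 of 2 and 3 of 4 pools and at least 1.35-fold higher (limma adjusted p 0.99997). In the tumor fraction it read 6.31 and 5.80 against 7.57, 7.20, 7.32 and 6.79.

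MHC class I genes were lowest in F0 B3 and F4 D, as T cell genes were. These genes encode the heavy chains (H2-K1, H2-D1), the shared light chain (B2m), the peptide transporter (Tap1, Tap2) and the immunoproteasome (Psmb8, Psmb9, Psmb10). RefSeq promoters (GRCm38.p6) matched 10 of the 12 tested genes, and the 250 bases before each start were searched on both strands for 2 interferon-response letter patterns. The first was GAAA, 2 bases of any kind, then GAAA, and the second TTC, 3 bases of any kind, then GAA. The first pattern was found in 2 genes and in 2.98% of all 32851 promoters, and the second in 1 gene and in 7.02% of promoters. The 3 stretches of 60 bases are those around the matches. Capitals mark the matched letters, sequences run with the gene, and no gene held both patterns. All 3 genes were lowest in F0 B3 and next lowest in F4 D. H2-K1 and H2-D1, which held neither pattern, had the same order, so it was not particular to genes with a match. A link between a match and the level of a gene was not tested. A match is a description of letters, not a bound site.
H2-T23, chr17:36032791-36032850, minus strand, first pattern on the opposite strand: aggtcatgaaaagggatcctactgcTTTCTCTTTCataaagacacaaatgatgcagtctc
B2m, chr2:122147523-122147582, plus strand, first pattern: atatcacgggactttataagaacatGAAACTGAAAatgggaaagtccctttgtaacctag
Psmb8, chr17:34198072-34198131, plus strand, second pattern: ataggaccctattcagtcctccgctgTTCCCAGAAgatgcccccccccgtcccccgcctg

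The mean of the 12 class I genes was 8.88 and 7.10 in F0 B2 and B3, and 8.66, 8.64, 8.73 and 7.85 in F4 A to D. All 4 F4 pools lay between the F0 pools for 8 of the 12, against 9.6% of all genes. H2-K1, a classical heavy chain, read 7.0 and 5.13 against 6.98, 6.71, 6.91 and 5.91, and H2-D1 5.84 and 4.32 against 5.79, 5.88, 5.82 and 5.21. B2m, whose promoter stretch is given above, read 13.32 and 12.61 against 13.17, 13.49, 13.56 and 13.01, with H2-T23 at 10.70 and 8.38 against 10.25, 10.46, 10.68 and 9.14. Psmb8 read 7.58 and 6.16 against 7.66, 7.70, 7.41 and 6.94. The median difference was 0.53 and none passed; it was -0.40 against F0 B2 and 1.33 against F0 B3. H2 genes are close copies, so their probes may read one another.

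Class II genes were highest in F4 B and C, as macrophage genes were. Their mean over 10 genes was 8.65 and 8.01 in F0 and 7.95, 9.41, 9.65 and 7.96 in F4. Cd74, the invariant chain that guides class II molecules, read 11.98 and 11.45 against 11.50, 13.12, 13.70 and 11.63. Ciita, the master regulator of class II genes, read 5.94 and 5.95 against 6.03, 7.06, 7.76 and 5.25.

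Interferon gamma response genes averaged 10.40 and 8.34 in F0 and 8.97, 10.02, 10.34 and 8.87 in F4. F4 A, the pool with the highest T cell mean, was among the 2 lowest F4 pools here. Igtp and Gbp3, interferon-induced GTPases, read 9.20 and 6.95 against 8.33, 8.98, 9.02 and 7.80, and 8.55 and 6.39 against 7.40, 8.30, 8.62 and 7.03. Type I interferon response genes spanned less, at 7.47 and 6.92 in F0 and 7.15, 7.54, 7.76 and 7.22 in F4. Ifit2, an interferon-induced antiviral protein, lay above both F0 pools in all 4 F4 pools (6.46 and 6.45 against 6.63, 6.96, 7.13 and 6.59; difference 0.37 ± 0.28 SE, limma adjusted p 0.99997). Another Ifit2 probe gave a difference of 0.09.

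Checkpoint genes other than Ctla4 showed no common direction, with 4 of 8 above and 4 below. Cd274, the PD-1 ligand that interferon gamma induces, read 10.48 and 9.29 against 9.54, 10.19, 11.08 and 9.16 (difference 0.11 ± 0.57 SE). Cd80, a B7 ligand of Ctla4 and Cd28, read 6.11 and 6.35 against 6.08, 6.89, 7.44 and 5.59, and Lgals9, galectin-9, 5.78 and 6.21 against 5.86, 6.88, 6.54 and 6.09. PD-1 itself was not among the named probes.

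Chemokine genes were highest in F4 B and C. Their mean over 16 genes was 7.78 and 7.24 in F0 and 7.03, 8.64, 9.14 and 7.47 in F4, with 15 of 16 higher in the F4 mean and a median of 0.59. Cxcl2, which attracts neutrophils, read 9.77 and 9.59 against 9.43, 10.41, 11.09 and 10.16, and Cxcl13, which attracts B cells, 5.77 and 4.96 against 5.57, 7.56, 7.63 and 4.91. Il1b, an inflammatory cytokine of myeloid cells, read 11.22 and 11.40 against 11.67, 12.74, 13.45 and 10.66, and Il18 4.87 and 4.88 against 5.32, 5.61, 5.60 and 5.21, at least 1.10-fold higher. Matrix remodelling genes were also highest in F4 C and next highest in F4 B: Timp2, a protease inhibitor, read 7.26 and 7.56 against 7.02, 8.79, 9.40 and 7.68, and the protease Mmp14 9.20 and 9.70 against 9.61, 9.92, 10.40 and 9.57.

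Cell cycle genes averaged 7.05 and 7.59 in F0 and 6.49, 7.20, 6.23 and 7.83 in F4, and respiratory chain genes 8.84 and 9.51 against 8.74, 9.04, 8.46 and 9.68, with F0 B3 and F4 D the highest of both. Of 17 cell cycle genes 15 were lower in the F4 mean (median -0.34), and of 28 respiratory chain genes 27 were (median -0.20). Of all genes 54.2% were lower. The respiratory chain direction rested on F0 B3. Against F0 B2 alone 21 of 28 were higher (median 0.12), and against F0 B3 alone 1 was (median -0.50). The cell cycle medians were -0.16 against F0 B2 and -0.60 against F0 B3. Tk1, a thymidine kinase, read 7.50 and 7.89 against 5.98, 7.27, 5.78 and 8.12, and Rrm2, a ribonucleotide reductase subunit, 6.44 and 7.34 against 5.92, 6.29, 4.85 and 7.16. Hk2, a hexokinase, read 10.42 and 11.41 against 9.74, 10.15, 10.24 and 11.04, and Scd1, a fatty acid desaturase, 6.39 and 7.64 against 6.27, 6.15, 5.73 and 7.18. Vegfa, the hypoxia-induced vessel growth factor, lay below both F0 pools in all 4 F4 pools, at 8.27 and 8.48 against 7.55, 7.63, 8.14 and 7.67 (difference -0.62 ± 0.29 SE; limma adjusted p 0.99997). Immediate early and heat shock genes, which cell dissociation can also induce, averaged 9.21 and 8.52 in F0 and 8.73, 9.50, 10.13 and 8.65 in F4, with Fos at 10.21 and 10.54 against 10.82, 11.51, 11.73 and 10.41; the part of dissociation in these values was not tested.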

How the data were processed

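Per the labels' protocols, 300 ng of total RNA per sample was amplified and biotinylated for single-colour Illumina bead arrays. GenomeStudio is the software named in the submitters' processing notes. The main deposited table held non-normalized intensity and a detection p-value for 25697 probes, per the file headers. Intensity after the authors' own processing was deposited for 12824 probes; the values are linear, and the medians of the arrays lie between 94.5 and 104.5. Its normalization is unknown, and it served as an alternative.

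The 6 microenvironment arrays were background-corrected with limma 3.58.1 (R 4.3.3) from the detection p-values, with an offset of 16, quantile-normalized and put on the log2 scale. A detection p below 0.01 was required on 2 or more arrays, which kept 9019 probes, 8389 of them with a gene name. In the platform annotation 12096 probes had 1 symbol, and the other 13601 had none or several. Of the 12096 probes, 12090 matched a RefSeq table (GRCm38.p6) by Entrez identifier. The brightest probe stood for a gene. A linear model of the 6 arrays was fitted with limma's empirical Bayes (residual degrees of freedom 4, prior 4.09) and Benjamini-Hochberg adjustment over 6627 genes. An "at least" fold for a gene detected on no array of a group set the bright group's mean against the higher of the lowest detected signal and the gene's own signal on each array. Tumor-fraction levels came from a normalization of all 12 arrays. On simulated data of 6627 genes drawn independently of each other the fit made 2 false calls. The number of arrays limits the precision.

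Gene lists (34, with 314 of 497 entries tested) and members were chosen with earlier results of these data known. Named genes were the 10 lowest p in each direction among non-overlapping genes detected throughout the brighter group, the 2 lowest p of each list, 33 fixed genes, and, as description, the largest differences between the F0 pools and the largest F4 spreads. The alternatives were scaling, background correction, detection filter, probe rule, array weights, moderation, a melanocyte covariate, the second table, 12 arrays, and leaving out pools.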

Additional observations from a re-analysis of the deposited data

Results flagged for a closer look

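Among 154 gene and list values examined over the 4 F4 pools, 6 had 1 pool set apart from the other 3 by a gap to the nearest pool that, divided by the group's range, was above Dixon's critical value; chance sets about 1 in 20 apart. The 6 values are no more than that share. They are not independent, since H2-D1 is a member of the class I list. In 5 of the 6 the pool was F4 D, which was also the F4 pool highest in melanocyte genes. Ctla4 read 6.99 in D against 8.15 to 8.23 in the others (gap ratio 0.934), and Rgs16 7.94 against 8.59 to 8.70 (0.862). H2-D1 read 5.21 in D against 5.79 to 5.88 (0.871), and the class I list mean 7.85 against 8.64 to 8.73 (0.904). The pan-leukocyte list mean was 8.64 in D against 9.48 to 9.65 (0.835). For Slc12a2 the pool was F4 A, at 7.35 against 6.44 to 6.49 (0.943), close to the F0 pools.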

How the results depend on the processing

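The counts of 0 higher and 0 lower genes were the same under 17 of 18 alternatives, 16 of them planned. The exception was chosen after seeing the data: with 11 arrays, leaving out the tumor fraction of F4 A, 1 gene was lower, Rhox5 (-3.89, limma adjusted p 0.0283). Rhox5 lay between -4.70 and -1.42 over its 17 alternatives and between -4.05 and -2.14 with a pool left out. The lowest adjusted p was 0.0539 without F0 B2, 0.547 without F0 B3, 0.306 with 12 arrays, 0.347 with array weights and 0.391 with the second deposited table. Leaving out F0 B2 or F0 B3 moved the T cell median to 2.53 or -0.60 and the cytotoxic median to 3.15 or -0.98. With the melanocyte mean as a covariate the lowest adjusted p was 0.999 and the T cell and class I medians were 0.70 and 0.24; without F0 B3 and F4 D, chosen after seeing the data, these were 0.593, -0.32 and -0.21. Of 123 named genes 67 kept their sign under every alternative run and 56 did not; of 33 list medians 10 did and 23 did not. Median scaling moved the median of all genes to 0.14, with 70.7% of genes higher in place of 45.8%, so small differences have no settled direction. No paired analysis was possible because the F4 pools (A to D) and the F0 pools (B2 and B3) share no replicate number.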

Other observations

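The F4 and F0 pools that correlated best across genes were set side by side, as 1 array each with no test; the pairs and the genes were chosen after their values were seen. F4 A beside F0 B2 had 12 of 13 T cell genes higher (median 0.44), while 6 of 7 interferon gamma response genes (median -1.38) and 7 of 8 checkpoint genes (median -1.0) were lower. Cxcl9, a chemokine that draws T cells, read 7.42 in F4 A and 10.30 in F0 B2, and Cxcl10 read 7.15 and 9.36. Lag3, an inhibitory receptor, read 5.77 and 7.89. Fibroblast genes were lower in 11 of 11 (median -1.04).

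F4 D beside F0 B3, the 2 pools with melanocyte gene levels near those of the tumor fraction, had 13 of 13 T cell genes higher (median 1.63), 12 of 12 class I genes higher (median 0.77) and 8 of 8 skeletal muscle genes higher (median 1.42). In F0 B3 only 9 of the 13, 10 of the 12 and 3 of the 8 were detected, so some of these differences were taken against background. Melanocyte genes differed little between F4 D and F0 B3 (median -0.07).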
